A study of Mus musculus with 9 samples.

Results

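The CC chemokine ligands are small secreted proteins that attract leukocytes, and 10 of them were described here in CD11b+ cells sorted from mouse gliomas: Ccl2, Ccl7, Ccl12, Ccl8, Ccl3, Ccl4, Ccl5, Ccl6, Ccl17 and Ccl22. They were found by symbol among the Ensembl identifiers of the count table, which made 10 of 53801 listed genes, and all 10 were among the 12538 protein-coding genes with enough counts to be tested. All mice were male C57BL/6J mice, 10 to 12 weeks old at the start, that carried a GL261 glioma expressing luciferase and tdTomato in the right striatum. CTR mice received saline by gavage (2 libraries), and OAT-1746 mice received this oral arginase inhibitor at 50 mg/kg by gavage, 2 times a day from day 1 after implantation (2 libraries). Anti-PD-1 mice received an antibody against the checkpoint receptor PD-1 by intraperitoneal injection, 2.5 mg/kg each on day 8, day 10, day 12 and day 14 (2 libraries), and COMB mice received both agents (3 libraries). The methods place the collection of the cells at day 28, and a legend places it at day 21. The hemisphere with the tumor was dissociated enzymatically before sorting. Since CD11b is shared by many myeloid cells and by NK cells, each library is a mixture, and levels of marker genes for the cell types it could hold are given below.

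Chemokines of the CC class bind G protein-coupled receptors of the CCR class and guide cells along their gradients. In the brain, ligands of CCR2 such as Ccl2 are known for drawing monocytes from blood into inflamed tissue and tumors, whereas Ccl3 and Ccl4 are transcribed readily by activated microglia. Ccl17 and Ccl22 bind CCR4 and are known products of dendritic cells and alternatively activated macrophages.

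The question put to the data was how the monocyte-recruiting ligands compare with the microglial ones across the 4 groups. Total counts ran from 13048075 to 18796479 read pairs per library, and the 10 ligands together took between 9414 pairs in COMB replicate 1 and 19518 pairs in anti-PD-1 replicate 2. Levels are given below as CPM, counts scaled to the library size after edgeR's TMM normalization, and differences as log2 fold changes with their standard error (SE) from an edgeR quasi-likelihood fit of all 9 libraries. Calls were made under 0.05 after Benjamini-Hochberg adjustment over the 12538 tested genes. With 2 biological replicates in 3 of the groups, each test borrows the spread of the other groups and genes.

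1 library stood apart. Pearson's r of log2 CPM over all tested genes was 0.911 to 0.956 between OAT-1746 replicate 2 and the other 8 libraries, and 0.960 to 0.989 between any 2 of those 8. The 12 monocyte and macrophage markers, all of them tested, summed to 13218 and 11940.1 CPM in CTR, 8920.2 and 1849 in OAT-1746, 11342 and 14035 in anti-PD-1, and 9559, 11376 and 11965 in COMB. Tgfbi, their gene with the highest mean over the 9 libraries, had 5703 and 4298 CPM in CTR, 2621 and 366 in OAT-1746, 3088 and 4815 in anti-PD-1, and 3335, 5829.8 and 6091 in COMB, with Lyz2 above it in 5 libraries at 4793 and 4296 CPM in CTR, 3139.8 and 919 in OAT-1746, 4268 and 5181 in anti-PD-1, and 3857, 2985 and 3153 in COMB, and S100a4 had 0 counts in OAT-1746 replicate 2, the only zero in the list. In OAT-1746 replicate 2 all 12 lay below both CTR libraries. In replicate 1 the markers were mixed, with 6 below both CTR libraries, Tgfbi and Lyz2 among them, and 3 above both (Ly6c2, Plac8 and Vcan). Ly6c2 had 303 and 692 CPM in CTR, 929 and 39.7 in OAT-1746, 716 and 869 in anti-PD-1, and 352, 372 and 330.4 in COMB. The 12 microglial markers, also all tested and never at 0, summed to 14967 and 23848 CPM in CTR, 31803 and 39751 in OAT-1746, 22569.8 and 18336 in anti-PD-1, and 27584, 20549 and 19375 in COMB. So OAT-1746 replicate 2 had the lowest monocyte marker level and the highest microglial marker level of the 9 libraries. Fold changes and counts of calls against OAT-1746 are given below with and without this library for the ligands. For the main lists, counts or medians are given with and without it. The sort marker itself, Itgam (CD11b), ranged from 294 CPM in anti-PD-1 replicate 1 to 446 CPM in OAT-1746 replicate 2. In bulk samples such as these, fewer cells of a type and less RNA per cell cannot be told apart. COMB replicates 2 and 3 were the most alike pair within a group, with a chi-square of 7.74 per degree of freedom between their counts against 32.9 to 90.3 in the other 5 pairs, which is still above sampling noise.

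Among the other cell types that the sort could hold, the 9 neutrophil markers summed to 317 to 692 CPM per library. Most of that sum was from 1 gene, Csf3r, at 243 to 475 CPM. The 8 markers of border-associated macrophages summed to 452 to 625 CPM. The 9 dendritic cell markers summed to 376 to 900 CPM, most of it from Fscn1. NK cell markers were lower and uneven, as given beside Ccl5. The 7 T cell markers summed to 7.32 to 12.6 CPM, most of it from Cd4, and the 4 B cell markers to 10.5 to 25.4 CPM. Among cells outside the gate, markers of oligodendrocytes summed to 79.9 to 221 CPM, of astrocytes to 61.0 to 199 CPM, of endothelial cells to 78.5 to 133 CPM, of neurons to 1.32 to 8.13 CPM, and of erythroid cells to 0.789 to 27.4 CPM.

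To compare the ligands with each other, CPM was divided by the length of each gene's merged exons in kilobases. In CTR the order of the mean levels per kilobase was Ccl12 (194), Ccl4 (175), Ccl5 (134), Ccl3 (107), Ccl6 (100.2), Ccl2 (99.7), Ccl7 (91.6), Ccl22 (12.01), Ccl17 (9.16) and Ccl8 (7.93 CPM per kb). The CTR libraries of neighbors in this order overlapped except at 2 steps, from Ccl7 to Ccl22 and from Ccl22 to Ccl17. In OAT-1746, Ccl4 (293) and Ccl3 (175 CPM per kb) had the highest means but overlapped the ligands next in order, Ccl3 lying below Ccl5 and Ccl12 in replicate 1 (104, 169 and 153 CPM per kb). The means of Ccl12 (122), Ccl6 (78.3), Ccl2 (52.9), Ccl7 (26.7), Ccl22 (9.30) and Ccl17 (2.81 CPM per kb) were lower than in CTR. In anti-PD-1 the leading ligands were Ccl4 (255), Ccl12 (239) and Ccl5 (239), whose libraries overlapped. In COMB, Ccl5 (294) and Ccl12 (175) had the highest means and overlapped, Ccl12 lying above Ccl5 in replicate 1 (147 and 139.99 CPM per kb), with Ccl4 at 103 and Ccl3 at 36.6 CPM per kb. The summed level of all 10 ligands was 885 and 783 CPM in CTR, 758 and 814 in OAT-1746, 1155 and 1099.9 in anti-PD-1, and 698, 1005 and 933 in COMB.

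**Figure D1:**
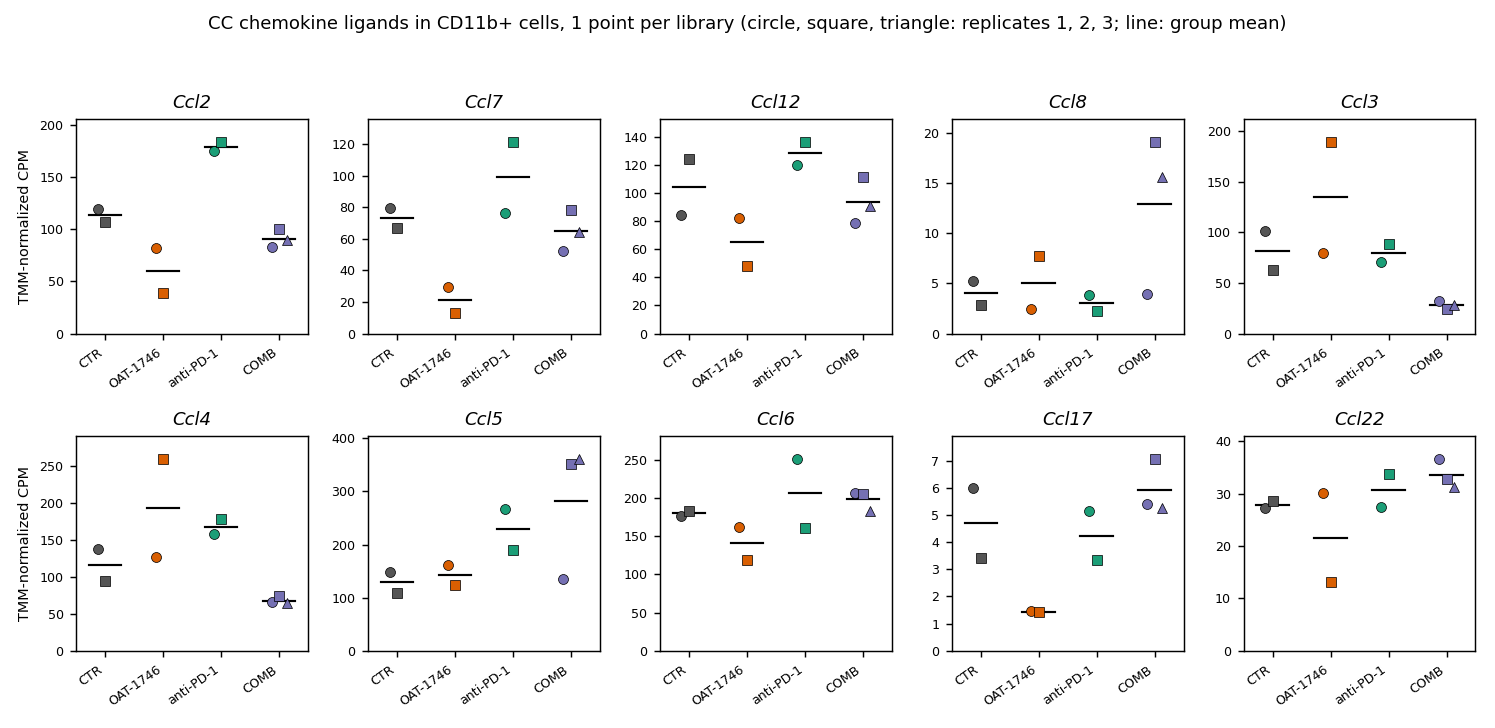
TMM-normalized CPM of each of the 10 ligands (vertical axis, starting at 0) in the 4 groups (horizontal axis), with 1 point per library, the marker shape giving the replicate and the line the group mean. Ccl2 and Ccl7 are lowest in both OAT-1746 libraries, Ccl3 and Ccl4 are lowest in the 3 COMB libraries, and Ccl5 and Ccl8 separate COMB replicates 2 and 3 from replicate 1.

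For COMB against OAT-1746, edgeR called 4 of the 10 ligands, against 15.8% of all tested genes: Ccl7 and Ccl17 rose (2 of 10, against 6.84% of genes called higher) and Ccl3 and Ccl4 fell (2 of 10, against 8.94% called lower). DESeq2 called these 4 and Ccl5 (24.4% of genes called), and limma voom called the same 4 (22.4%). At an unadjusted p under 0.05, 4 ligands were higher (Ccl7, Ccl5, Ccl6 and Ccl17, 18.3% of genes) and 2 lower (Ccl3 and Ccl4, 18.8%). For Ccl2, Ccl12 and Ccl22 the log2 fold change was 0.59, 0.52 and 0.63, and 0.16, 0.20 and 0.17 without OAT-1746 replicate 2. For Ccl5 and Ccl8 it was 0.98 and 1.34, and 0.81 and 2.41 without that library. Without COMB replicate 2 and without COMB replicate 3, the log2 fold changes of the 4 called ligands stayed near those of the full fit. They were 1.45 and 1.60 for Ccl7 (1.61 in the full fit) and 1.88 and 2.11 for Ccl17 (2.03). For Ccl3 they were -2.17 and -2.24 (-2.26), and for Ccl4 -1.57 and -1.47 (-1.51). The 4 calls nevertheless depended on single libraries. None was made without OAT-1746 replicate 2 (0.21% of all genes called), COMB replicate 2 (0.112%) or COMB replicate 3 (0.04%), whereas leaving out OAT-1746 replicate 1 gave 8 calls (31.4%) and leaving out COMB replicate 1 gave 6 (23.4%). A fit of the COMB and OAT-1746 libraries alone called 0 ligands (0.245% of its genes called), with 6 at an unadjusted p under 0.05 in the fit of all groups.

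Against CTR, edgeR called 0 of the 10 ligands in OAT-1746 (0% of genes), with 4 ligands lower at an unadjusted p under 0.05 (Ccl2, Ccl7, Ccl12 and Ccl17; 16.2% of genes) and 1 higher (Ccl4; 16.1%). DESeq2 called Ccl2, Ccl7 and Ccl17 (15.7% of genes) and limma voom called 0 ligands (0%). For 5 ligands, those 4 lower at an unadjusted p under 0.05 and Ccl6, the OAT-1746 values were all lower than the CTR values, as for 32.1% of genes, and for 0 ligands were they all higher (30.8%). The log2 fold change was 0.15 for Ccl5 and -0.36 for Ccl6, and 0.34 and -0.14 without OAT-1746 replicate 2. Without OAT-1746 replicate 1, edgeR called 7 ligands in this comparison (28.2% of all genes), and without replicate 2 it called 0 (0%).

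Anti-PD-1 against CTR gave 0 ligands called by edgeR (0% of genes), by DESeq2 (0.112%) or by limma voom (0%). At an unadjusted p under 0.05, Ccl2 was higher (3.18% of genes) and 0 ligands were lower (1.94%). Both anti-PD-1 libraries lay above both CTR libraries for Ccl2, Ccl4 and Ccl5, 3 of 10 ligands against 20.6% of genes, and below both for 0 ligands (16.9%).

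COMB against CTR gave 0 ligands called by edgeR (0% of genes) or limma voom (0.0160%), whereas DESeq2 called Ccl3 (0.279%). At an unadjusted p under 0.05, Ccl8 and Ccl5 were higher (2 of 10, against 3.21% of genes) and Ccl3 and Ccl4 lower (2 of 10, against 3.37%). All 3 COMB libraries lay below both CTR libraries for Ccl2, Ccl3 and Ccl4, 3 of 10 against 15.8% of genes, and above both for Ccl22, 1 of 10 against 12.1%.

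COMB against anti-PD-1 again gave 0 ligands called by edgeR (0% of genes), while DESeq2 (0.375%) and limma voom (0.279%) each called Ccl3 and Ccl4. Ccl8 was higher at an unadjusted p under 0.05 (1.98% of genes), and Ccl2, Ccl3 and Ccl4 were lower (3 of 10, against 5.26%). The COMB libraries lay below both anti-PD-1 libraries for 4 ligands (Ccl2, Ccl12, Ccl3 and Ccl4), against 16.4% of genes, and above both for 2 (Ccl8 and Ccl17), against 10% (1258 of 12538). When either OAT-1746 library was left out, which removes no library of this comparison but changes the shared spread, edgeR called 3 ligands (Ccl2, Ccl3 and Ccl4), against 0.405% of all genes without replicate 1 and 0.319% without replicate 2.

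The interaction asks whether OAT-1746 acts differently when the antibody is also given. edgeR called 0 ligands for it (0.359% of genes called), with Ccl7 and Ccl17 positive (11.8% of genes) and Ccl3 and Ccl4 negative (14.4%) at an unadjusted p under 0.05. DESeq2 called Ccl3, Ccl4 and Ccl17 (8.40% of genes), and limma voom Ccl3 and Ccl4 (3.41%). Without OAT-1746 replicate 1 there were 5 calls (21.3% of all genes), and without replicate 2 there were 0 (0.203%). These comparisons share libraries, so their values stand side by side and are not independent of each other.

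**Figure D2:**
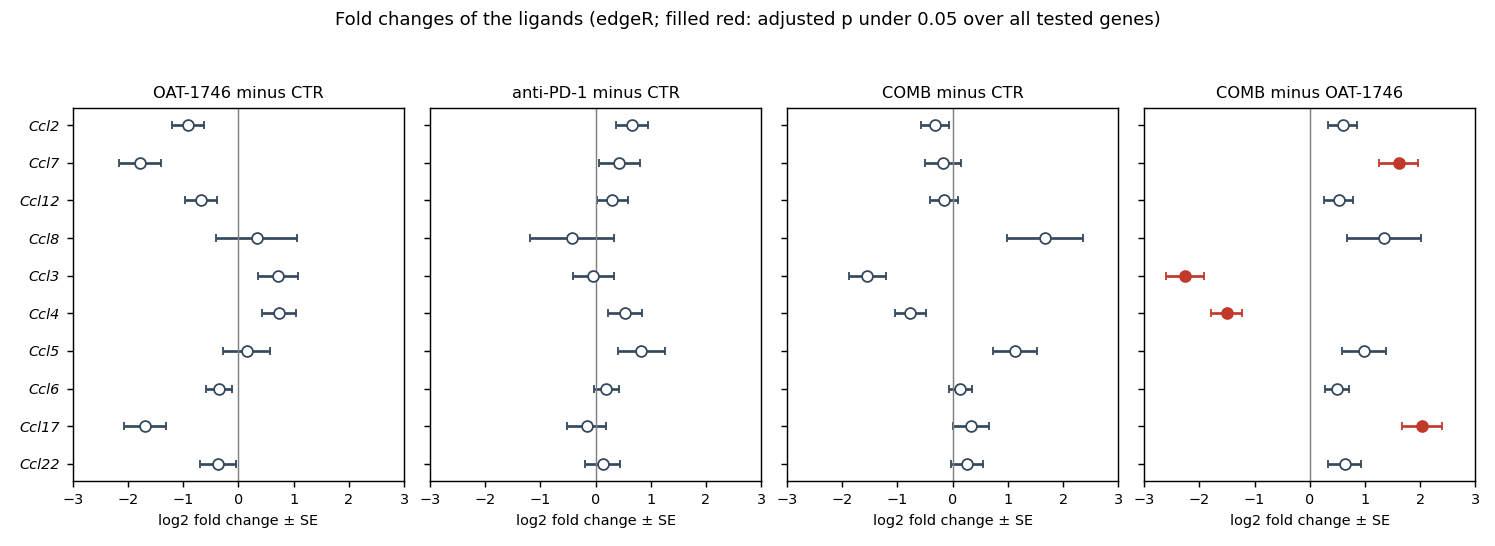
Log2 fold changes (horizontal axis) with their SE (bars) of the 10 ligands (vertical axis) in 4 comparisons, with filled red points for an edgeR adjusted p under 0.05. The monocyte-recruiting Ccl2, Ccl7 and Ccl12 lie below 0 for OAT-1746 minus CTR and above 0 for COMB minus OAT-1746, and Ccl3 and Ccl4 lie on the opposite side in both. Ccl8, also monocyte-recruiting, lies above 0 in both.

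Ccl2, Ccl7, Ccl12 and Ccl8 form the monocyte chemoattractant group and lie in a cluster on chromosome 11, from position 82035571 to 82116799 of GRCm38, all on the plus strand. Ccl2, the main ligand of CCR2, stood at 119.5 and 107 CPM in CTR, 81.8 and 38.7 in OAT-1746, 175 and 184 in anti-PD-1, and 82.8, 100.1 and 89.6 in COMB. The OAT-1746 libraries were the 2 lowest, followed by COMB, CTR and anti-PD-1, and no groups overlapped, although OAT-1746 replicate 1 and COMB replicate 1 were nearly equal. In OAT-1746 the level was 1.88-fold lower than in CTR (log2 fold change -0.91 ± 0.29 (SE), unadjusted p = 0.0117, edgeR adjusted p = 0.0851). Without OAT-1746 replicate 2 the log2 fold change was -0.46 (edgeR adjusted p = 0.309), and over all alternatives the adjusted p ran from 0.00179 to 0.309. It was called at -1.56 (adjusted p = 0.00179) without OAT-1746 replicate 1. In anti-PD-1 it was 1.58-fold higher than in CTR (log2 fold change 0.66 ± 0.29 (SE), unadjusted p = 0.0472, edgeR adjusted p = 0.951), and in COMB it was 1.98-fold lower than in anti-PD-1 (log2 fold change -0.98 ± 0.26 (SE), unadjusted p = 0.00418, edgeR adjusted p = 0.512). The latter was called with either OAT-1746 library left out, at -0.98 (adjusted p = 0.0263) without OAT-1746 replicate 1 and -0.96 (adjusted p = 0.0292) without OAT-1746 replicate 2, within 0.0263 to 1.000 over the alternatives.

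Ccl7, a further ligand of CCR2 that also binds CCR1 and CCR3, stood at 79.5 and 67.2 CPM in CTR, 29.7 and 12.99 in OAT-1746, 76.3 and 122 in anti-PD-1, and 52.1, 78.3 and 64.7 in COMB. The OAT-1746 libraries were below the other 7, which overlapped each other. Against CTR the level in OAT-1746 was 3.43-fold lower (log2 fold change -1.78 ± 0.38 (SE), edgeR adjusted p = 0.0610), and without OAT-1746 replicate 2 the log2 fold change was -1.29 (edgeR adjusted p = 0.268; 0.000642 to 0.273 over the alternatives). It was called at -2.50 (adjusted p = 0.00246) without OAT-1746 replicate 1. In COMB, Ccl7 was 3.04-fold higher than in OAT-1746 (log2 fold change 1.61 ± 0.36 (SE), edgeR adjusted p = 0.0287), as seen in all 3 COMB libraries. Without OAT-1746 replicate 2 this was 1.14 (edgeR adjusted p = 0.145; 0.000209 to 0.217 over the alternatives). It was also not called at 1.45 (adjusted p = 0.108) without COMB replicate 2 and 1.60 (adjusted p = 0.112) without COMB replicate 3. The ratio of Ccl7 to Ccl2 counts within a library needs no normalization between libraries. It was 0.665 and 0.625 in CTR, 0.364 and 0.336 in OAT-1746, 0.436 and 0.660 in anti-PD-1, and 0.629, 0.782 and 0.722 in COMB, and the OAT-1746 libraries had the lowest ratios, alike in both replicates.

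Ccl12, the mouse CCR2 ligand with no single human counterpart, stood at 84.2 and 124 CPM in CTR, 82.1 and 48.5 in OAT-1746, 120.3 and 137 in anti-PD-1, and 79.1, 112 and 90.7 in COMB. The anti-PD-1 libraries and CTR replicate 2 were the highest, and OAT-1746 replicate 1 stood within the COMB range. The log2 fold change of Ccl12 in OAT-1746 against CTR was -0.68 ± 0.28 (SE, edgeR adjusted p = 0.140), -0.33 without OAT-1746 replicate 2, and called at -1.11 (adjusted p = 0.0204) without OAT-1746 replicate 1 (0.0204 to 0.556 over the alternatives). Ccl8 did not follow the rest of its group. It stood at 5.29 and 2.82 CPM in CTR, 2.44 and 7.73 in OAT-1746, 3.83 and 2.25 in anti-PD-1, and 3.93, 19.1 and 15.7 in COMB, and COMB replicates 2 and 3 were the highest of all while COMB replicate 1 lay within the range of CTR. In COMB it was 3.19-fold higher than in CTR (log2 fold change 1.67 ± 0.69 (SE), unadjusted p = 0.0380, edgeR adjusted p = 0.752) and 4.28-fold higher than in anti-PD-1 (log2 fold change 2.10 ± 0.71 (SE), unadjusted p = 0.0164, edgeR adjusted p = 0.589). For OAT-1746 against CTR its log2 fold change was 0.33, and -0.72 without OAT-1746 replicate 2.

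Ccl2, Ccl7, Ccl12 and Ccl8 share a cluster, but Ccl8 did not follow the others. The promoters of Ccl12 and Ccl8 are therefore shown, with those of Ccl3 and Ccl17 further on. RefSeq promoters (GRCm38.p6) were matched by symbol for 6 of the 10 ligands: Ccl12, Ccl8, Ccl3, Ccl6, Ccl17 and Ccl22. Ccl2, Ccl7, Ccl4 and Ccl5 were not matched. In the 250 bases before the start site, both strands were searched for the letters of 6 motifs: TATA box (TATAAA), PU.1 (GAGGAA), AP-1 (TGANTCA), and longer ones of NF-kB, CRE and the interferon-stimulated response element. Among all 32851 promoters of the table these letters were found in 12.4%, 23.3%, 6.75%, 1.21%, 1.55% and 2.98%, in the same order. The letters of the TATA box were present in Ccl12 and Ccl8 alone among the 6, those of PU.1 once each in Ccl12, Ccl8, Ccl3 and Ccl17, and those of the other 4 motifs in none of the 6. A match is a description of these letters and not of a bound site. The window of Ccl12 is chr11:82101595-82101844 and that of Ccl8 chr11:82114935-82115184, both on the plus strand, and capitals mark the matches, which do not overlap each other. In Ccl12 they are PU.1 and then TATA box, and in Ccl8 PU.1 on the opposite strand and then TATA box.
Ccl12: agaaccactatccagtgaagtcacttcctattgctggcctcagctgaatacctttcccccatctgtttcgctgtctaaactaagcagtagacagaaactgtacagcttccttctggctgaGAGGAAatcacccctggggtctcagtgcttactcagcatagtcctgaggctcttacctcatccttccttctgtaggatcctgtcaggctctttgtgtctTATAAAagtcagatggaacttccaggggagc
Ccl8: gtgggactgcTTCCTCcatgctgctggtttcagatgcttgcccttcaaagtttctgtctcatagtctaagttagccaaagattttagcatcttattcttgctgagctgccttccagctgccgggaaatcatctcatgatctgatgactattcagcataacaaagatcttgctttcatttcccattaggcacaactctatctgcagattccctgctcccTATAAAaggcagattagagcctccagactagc

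Of the 12 monocyte and macrophage markers, edgeR called 2 higher and 0 lower in COMB against OAT-1746 (6.84% and 8.94% of all genes). In OAT-1746 against CTR, 6 were lower and 0 higher at an unadjusted p under 0.05 (16.2% and 16.1%). With OAT-1746 replicate 2 left out, 0 were called in the first comparison (3 higher and 2 lower at an unadjusted p under 0.05, against 9.96% and 9.43% of the 12837 genes of that fit), and 4 were lower and 1 higher in the second (6.33% and 8.30%). Ccr2, the receptor of Ccl2 and itself 1 of these markers, stood at 337 and 377 CPM in CTR, 234 and 61.7 in OAT-1746, 278 and 304 in anti-PD-1, and 186, 234 and 243 in COMB. The sum of the 4 monocyte-recruiting ligands was lowest in OAT-1746 replicate 2, as that of the markers was. The 14 interferon-stimulated genes, all tested and never at 0, summed to 3438 and 3688 CPM in CTR, 3916 and 1706 in OAT-1746, 5309 and 5015 in anti-PD-1, and 2937, 3130.0 and 3161 in COMB. Irf8 had the highest mean over the 9 libraries, but Irf7 was above it in CTR replicate 2, OAT-1746 replicate 1 and both anti-PD-1 libraries. Both anti-PD-1 libraries were the highest for the sum of these genes, as they were for Ccl2, and OAT-1746 replicate 2 was the lowest. In OAT-1746 replicate 1, however, their sum lay above both CTR libraries, while the sum of the 4 ligands lay below both. Of the 14 genes, 7 lay above both CTR libraries there and 3 below both. edgeR called 0 of the 14 in each of the 6 comparisons (15.8% of genes called in COMB against OAT-1746, 0.359% for the interaction and 0% in the others). At an unadjusted p under 0.05, 7 were lower in COMB against anti-PD-1 (5.26% of genes). At that level 0 were higher or lower in OAT-1746 against CTR (16.1% and 16.2%) or anti-PD-1 against CTR (3.18% and 1.94%). A fit that left out OAT-1746 replicate 2, which changes the shared spread, called 6 of them lower in COMB against anti-PD-1 (0.319% of its genes) and had 9 higher in anti-PD-1 against CTR at an unadjusted p under 0.05 (4.73%), with 0 called. The part of either list in the levels of the ligands was not tested.

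By Pearson's r of log2 CPM over the 9 libraries, the 5 tested genes most like Ccl2 were Piga (0.980, or 0.960 without OAT-1746 replicate 2), Triobp (0.979, 0.958), Cxcl10 (0.977, 0.977), AW011738 (0.976, 0.942) and Ogfr (0.964, 0.952). Cxcl10 encodes an interferon-induced chemokine of the CXC class. It stood at 413 and 319 CPM in CTR, 301 and 88.8 in OAT-1746, 554 and 605 in anti-PD-1, and 288, 313 and 310.1 in COMB. These r values are the highest of 12538 and are given as a description.

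Ccl3 and Ccl4, the macrophage inflammatory proteins, lie close together on chromosome 11 on opposite strands, Ccl3 from 83647844 to 83649355 and Ccl4 from 83662584 to 83664683. Ccl3 stood at 101 and 62.8 CPM in CTR, 79.5 and 189 in OAT-1746, 70.6 and 88.1 in anti-PD-1, and 31.7, 24.6 and 27.9 in COMB. The COMB libraries lay below the other 6 with no overlap, and OAT-1746 replicate 2 was the highest, while replicate 1 lay between the CTR libraries. In COMB, Ccl3 fell 4.79-fold against OAT-1746 (log2 fold change -2.26 ± 0.34 (SE), edgeR adjusted p = 0.0160). Without OAT-1746 replicate 2 the log2 fold change was -1.49 (edgeR adjusted p = 0.0615; 9.24e-08 to 0.212 over the alternatives). It was also not called at -2.17 (adjusted p = 0.0868) without COMB replicate 2 and -2.24 (adjusted p = 0.107) without COMB replicate 3. The comparisons of COMB with CTR and with anti-PD-1 do not use the OAT-1746 libraries except for the shared spread. There Ccl3 was 2.92-fold lower (log2 fold change -1.54 ± 0.34 (SE), unadjusted p = 0.00126, edgeR adjusted p = 0.673; -1.85 to -1.13 with single libraries left out) and 2.83-fold lower (log2 fold change -1.50 ± 0.34 (SE), unadjusted p = 0.00152, edgeR adjusted p = 0.424). The latter was called at -1.50 (adjusted p = 0.0265) without OAT-1746 replicate 1 and -1.47 (adjusted p = 0.0294) without OAT-1746 replicate 2 (0.0135 to 1.000 over the alternatives). OAT-1746 against CTR gave 0.72 ± 0.37 on the log2 scale (SE, edgeR adjusted p = 0.208), -0.03 without OAT-1746 replicate 2, and a call at 1.21 (adjusted p = 0.0128) without OAT-1746 replicate 1 (0.0128 to 0.969 over the alternatives).

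Ccl4 stood at 138 and 93.7 CPM in CTR, 127 and 259.5 in OAT-1746, 158 and 178 in anti-PD-1, and 65.3, 73.8 and 64.4 in COMB. As with Ccl3, the COMB libraries were the 3 lowest and OAT-1746 replicate 2 the highest, but both anti-PD-1 libraries lay above both CTR libraries, which was not so for Ccl3. In COMB, Ccl4 fell 2.85-fold against OAT-1746 (log2 fold change -1.51 ± 0.28 (SE), edgeR adjusted p = 0.0212), and without OAT-1746 replicate 2 the log2 fold change was -0.89 (edgeR adjusted p = 0.125; 5.81e-05 to 0.217 over the alternatives). It was also not called at -1.57 (adjusted p = 0.0876) without COMB replicate 2 and -1.47 (adjusted p = 0.112) without COMB replicate 3. Against CTR it was 1.71-fold lower in COMB (log2 fold change -0.77 ± 0.28 (SE), unadjusted p = 0.0218, edgeR adjusted p = 0.752; -0.44 without CTR replicate 1 and -1.03 without CTR replicate 2) and against anti-PD-1 2.48-fold lower (log2 fold change -1.31 ± 0.28 (SE), unadjusted p = 0.00107, edgeR adjusted p = 0.424). The latter was called at -1.31 (adjusted p = 0.0254) without OAT-1746 replicate 1 and -1.28 (adjusted p = 0.0292) without OAT-1746 replicate 2 (0.00956 to 1.000 over the alternatives). In OAT-1746 it was 1.67-fold higher than in CTR (log2 fold change 0.74 ± 0.31 (SE), unadjusted p = 0.0403, edgeR adjusted p = 0.139), or 0.14 on the log2 scale without replicate 2 and 1.16 (adjusted p = 0.00807) without OAT-1746 replicate 1 (0.00807 to 0.784 over the alternatives). The ratio of Ccl3 to Ccl4 counts was 0.733 and 0.670 in CTR, 0.627 and 0.730 in OAT-1746, 0.447 and 0.494 in anti-PD-1, and 0.485, 0.334 and 0.433 in COMB. It was higher in every CTR and OAT-1746 library than in any anti-PD-1 or COMB library, a split by the antibody that was noticed in the values and was not tested.

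The immediate early genes, which are induced within minutes by many stimuli and, as background, also by tissue dissociation, are given beside these ligands. All 20 were tested and none was at 0 in a library. They summed to 14138 and 13366 CPM in CTR, 20262 and 29150.4 in OAT-1746, 13402 and 17393 in anti-PD-1, and 7676, 8644 and 8773 in COMB. Junb, with the highest mean over the 9 libraries, had 2520.5 and 2365 CPM in CTR, 2986 and 3004 in OAT-1746, 1653 and 2774 in anti-PD-1, and 1092, 1331 and 1356 in COMB. The highest of the 20 was Jun in OAT-1746 replicate 2, and Dusp1 in anti-PD-1 replicate 1 and all 3 COMB libraries. Of the 20, edgeR called 17 lower and 0 higher in COMB against OAT-1746, against 8.94% and 6.84% of all genes, with a median log2 fold change of -1.62 beside 0.00 over all tested genes. Against CTR, 0 were called in COMB by edgeR (0% of genes), and 12 were lower and 0 higher at an unadjusted p under 0.05 (3.37% and 3.21%). In OAT-1746 against CTR, 11 were higher and 0 lower at that level (16.1% and 16.2%). For the interaction, 6 were called negative (0.359% of genes called in either direction). When OAT-1746 replicate 2 was left out, 3 were called lower in COMB against OAT-1746 (0.203% of the genes of that fit), 17 being lower at an unadjusted p under 0.05 (9.43%; median -1.36). For the interaction 7 were called negative (0.203%), and 9 were higher in OAT-1746 against CTR at an unadjusted p under 0.05 (8.30%). COMB libraries had the 3 lowest sums and OAT-1746 libraries the 2 highest, the order seen for Ccl3 and Ccl4 but for OAT-1746 replicate 1. The part of these genes in the levels of Ccl3 and Ccl4 was not tested.

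Microglial marker sums were also the 2 highest in OAT-1746, but not the 3 lowest in COMB. There (27584, 20549 and 19375 CPM) they overlapped those in CTR (14967 and 23848 CPM), where Ccl3 and Ccl4 did not overlap. The part of microglia in the levels of Ccl3 and Ccl4 was not tested. In edgeR, 0 of the 12 had an unadjusted p under 0.05 for COMB against CTR in either direction (3.21% of genes higher and 3.37% lower). In OAT-1746 against CTR all 12 were higher at an unadjusted p under 0.05 (16.1% of genes), with 0 called, and in COMB against OAT-1746 all 12 were lower, 11 at an unadjusted p under 0.05 (18.8% of genes) and 2 of them called (8.94%). In the fit that left out OAT-1746 replicate 2, 8 were higher in the former at an unadjusted p under 0.05 (8.30% of its genes), and in the latter 0 were called, with 3 lower at an unadjusted p under 0.05 (9.43%).

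The 12 genes of the NF-kB pathway, all tested and never at 0, summed to 1961 and 1967 CPM in CTR, 2971 and 3839.6 in OAT-1746, 2280.0 and 2759.8 in anti-PD-1, and 1554, 1777 and 1800.4 in COMB, and Nfkbia was the most abundant. In COMB against OAT-1746, edgeR called 5 of them lower and 0 higher (8.94% and 6.84% of all genes). At an unadjusted p under 0.05, 6 were lower and 3 higher (18.8% and 18.3%), the 3 being Nfkb2, Relb and Bcl3. For the interaction 1 was called negative (0.359% of genes called in either direction). The median log2 fold change in COMB against OAT-1746 was -0.33, and -0.28 without OAT-1746 replicate 2, where fewer of the 12 were called. Among 10 inflammatory cytokines edgeR called 3 lower and 0 higher in COMB against OAT-1746 (8.94% and 6.84% of all genes). These 10 cytokines had a median log2 fold change of -0.50 there, and -0.52 without OAT-1746 replicate 2, where fewer of them were called. They summed to 1583 and 1250.5 CPM in CTR, 1165 and 853 in OAT-1746, 1089.9 and 2132 in anti-PD-1, and 815, 950.3 and 974 in COMB, with no gene at 0. Il1b had the highest mean over the 9 libraries, below Il1a and Tnf in OAT-1746 replicate 2 and below Cxcl10 in anti-PD-1 replicate 1. Tnf, a product of activated microglia and macrophages, stood at 123 and 151 CPM in CTR, 176 and 167 in OAT-1746, 94.98 and 150.0 in anti-PD-1, and 46.5, 43.2 and 36.9 in COMB, with the COMB libraries below the other 6. In COMB against OAT-1746 Tnf fell by 2.02 ± 0.21 on the log2 scale (SE, edgeR adjusted p = 0.00528), with a log2 fold change of -2.05 without OAT-1746 replicate 2 (adjusted p = 0.00904). Il1b differed, at 792 and 556 CPM in CTR, 424 and 132 in OAT-1746, 237 and 1060.1 in anti-PD-1, and 288, 454 and 483 in COMB, with its lowest level in OAT-1746 replicate 2. What these lists contribute to the ligands was not tested.

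Genes most like Ccl3 by the same measure were Rasgef1b (0.984, or 0.976 without OAT-1746 replicate 2), Fos (0.982, 0.971), Pggt1b (0.971, 0.973), Setd1b (0.969, 0.966) and Fosb (0.966, 0.944), over 9 libraries and with no p. Fos and Fosb belong to the list of immediate early genes. The 250 bases before the start of Ccl3, chr11:83649379-83649628 on the minus strand, are shown because Ccl3 had the largest fall of the 10 ligands in COMB against OAT-1746. Capitals mark the letters of PU.1 on the opposite strand, and no other searched motif was found.
Ccl3: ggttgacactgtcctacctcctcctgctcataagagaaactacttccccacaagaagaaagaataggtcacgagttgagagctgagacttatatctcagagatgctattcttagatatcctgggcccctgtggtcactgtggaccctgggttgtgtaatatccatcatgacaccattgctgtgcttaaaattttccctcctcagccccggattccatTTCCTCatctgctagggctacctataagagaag

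Set side by side, the 4 monocyte-recruiting ligands summed to 289 and 302 CPM in CTR, 196 and 108 in OAT-1746, 376 and 445 in anti-PD-1, and 218, 309 and 261 in COMB, and the microglial pair Ccl3 and Ccl4 to 239 and 156 CPM in CTR, 206 and 449 in OAT-1746, 228 and 266 in anti-PD-1, and 97.0, 98.4 and 92.4 in COMB. The first sum was lowest in OAT-1746 and highest in anti-PD-1, and the second was lowest in COMB and highest in OAT-1746 replicate 2. The ratio of Ccl3 to Ccl2 counts was 0.844 and 0.584 in CTR, 0.972 and 4.89 in OAT-1746, 0.403 and 0.478 in anti-PD-1, and 0.382, 0.246 and 0.312 in COMB. OAT-1746 replicate 1 was near CTR replicate 1 in this ratio and replicate 2 far above all others, while the COMB libraries were the lowest, with no overlap with any other group.

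As medians of the log2 fold change, OAT-1746 against CTR gave -0.80 for the 4 monocyte-recruiting ligands and 0.73 for the microglial ones, beside 0.01 over all tested genes. Without OAT-1746 replicate 2 these were -0.59 and 0.06, and without replicate 1 -1.33 and 1.18. For anti-PD-1 against CTR the medians were 0.37 and 0.25, beside 0.02 over all genes. Leaving out single libraries moved these to between 0.13 and 0.55 for the monocyte-recruiting ligands, without anti-PD-1 replicates 2 and 1. With CTR replicate 2 left out the microglial median was -0.03, the opposite direction, and with CTR replicate 1 left out 0.59. COMB against CTR gave -0.16 and -1.16, beside -0.00, and COMB against OAT-1746 gave 0.97 and -1.88, beside 0.00. The last medians were 0.67 and -1.19 without OAT-1746 replicate 2. In COMB against CTR the medians ran from -0.31 to -0.06 without COMB replicates 2 and 1 for the monocyte-recruiting ligands, and from -1.44 to -0.79 without CTR replicates 2 and 1 for the microglial ones. These medians describe the lists and carry no test.

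**Figure D3:**
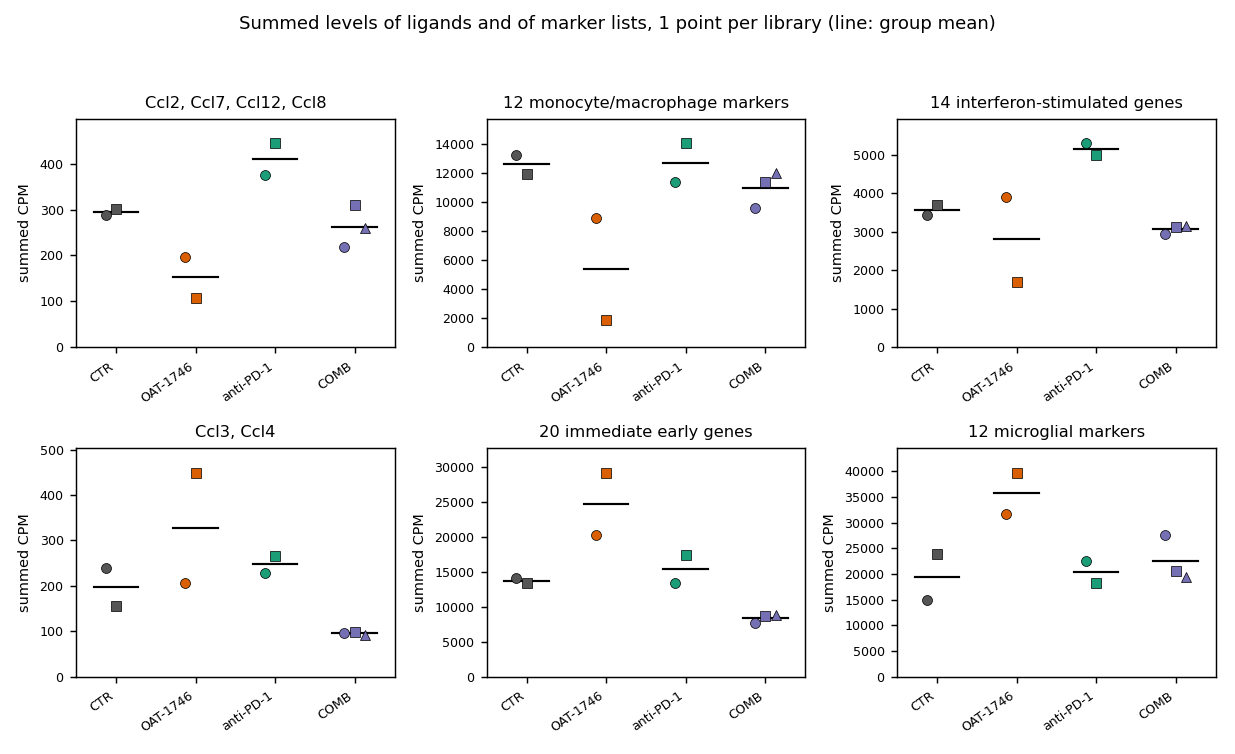
Summed CPM (vertical axes, starting at 0) of the monocyte-recruiting ligands with the monocyte and macrophage markers and the interferon-stimulated genes (upper row), and of Ccl3 and Ccl4 with the immediate early genes and the microglial markers (lower row), with 1 point per library, the marker shape giving the replicate and the line the group mean. OAT-1746 replicate 2 is lowest in all 3 upper panels and highest in all 3 lower panels, and the COMB libraries are the lowest for Ccl3 and Ccl4 and for the immediate early genes.

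Ccl5, a ligand of CCR1 that myeloid cells, NK cells and T cells produce, stood at 149 and 109 CPM in CTR, 162 and 124 in OAT-1746, 268 and 191 in anti-PD-1, and 134, 352 and 361 in COMB. COMB replicates 2 and 3 were the highest of all libraries, COMB replicate 1 lay among the CTR libraries, and both anti-PD-1 libraries lay above CTR and OAT-1746. In COMB it was 2.19-fold higher than in CTR (log2 fold change 1.13 ± 0.40 (SE), unadjusted p = 0.0189, edgeR adjusted p = 0.747), with a log2 fold change of 0.91 to 1.45 when each library was left out in turn. In anti-PD-1 it was 1.78-fold higher than in CTR (log2 fold change 0.83 ± 0.42 (SE), unadjusted p = 0.0811, edgeR adjusted p = 0.965). The 9 NK cell markers, all tested and none at 0 counts, summed to 46.1 and 39.4 CPM in CTR, 72.3 and 19.1 in OAT-1746, 267 and 142 in anti-PD-1, and 56.3, 129.7 and 141 in COMB, with Gzma the most abundant at 16.0 and 16.6 CPM in CTR, 23.7 and 7.61 in OAT-1746, 106 and 49.9 in anti-PD-1, and 23.3, 52.8 and 54.1 in COMB. Their sum was highest in anti-PD-1 replicate 1, where Ccl5 had rank 3, and it set COMB replicate 1 below COMB replicates 2 and 3, as Ccl5 did. At an unadjusted p under 0.05, 9 of the 9 were higher in anti-PD-1 than in CTR (3.18% of genes). In COMB against CTR, 5 were higher at that level (3.21%). In either comparison edgeR called 0 of them (0% of genes). T cell markers other than Cd4 were near 0, with Cd3e at 0 to 0.528 CPM. The part of NK cells in the Ccl5 level was not tested.

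**Figure D4:**
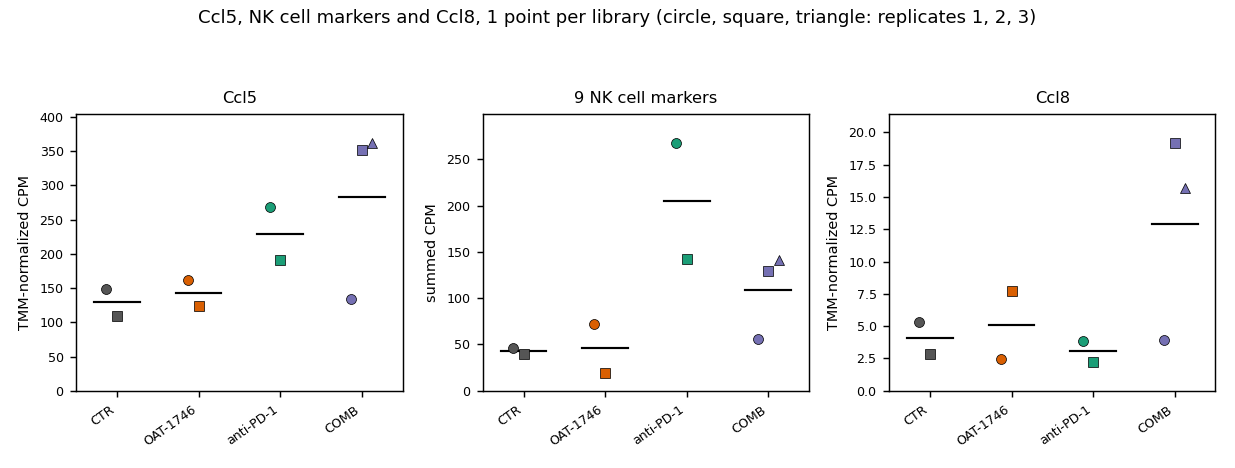
TMM-normalized CPM of Ccl5 (left) and Ccl8 (right) and summed CPM of the 9 NK cell markers (middle), each axis starting at 0, with 1 point per library, the marker shape giving the replicate and the line the group mean. COMB replicates 2 and 3 lie above COMB replicate 1 in all 3 panels, and the anti-PD-1 libraries are the highest for the NK cell markers but not for Ccl8.

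Ccl6, a myeloid ligand of CCR1, was the most even of the 10, at 176 and 183 CPM in CTR, 162 and 119 in OAT-1746, 251 and 161 in anti-PD-1, and 207, 205 and 182 in COMB. It was lowest in OAT-1746 replicate 2 and highest in anti-PD-1 replicate 1. In COMB it was 1.41-fold higher than in OAT-1746 (log2 fold change 0.50 ± 0.21 (SE), unadjusted p = 0.0449, edgeR adjusted p = 0.126), 0.30 on the log2 scale without OAT-1746 replicate 2, and called at 0.74 (adjusted p = 0.0439) without OAT-1746 replicate 1 (0.0439 to 0.508 over the alternatives). A noncoding antisense gene, E230016K23Rik, overlaps Ccl6 and had 55 counts in all libraries together, and Gm17268, antisense to Ccl2, had 0. The counting used the strand.

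The CCR4 ligands lie on chromosome 8, Ccl22 from 94745590 to 94751699 and Ccl17 from 94810453 to 94812036. The lowest count of any ligand in a library was that of Ccl17, although Ccl8 had fewer counts than Ccl17 in CTR, anti-PD-1 and COMB replicate 1. Ccl17 had 25 counts in each OAT-1746 library against 58 to 107 in the other 7, or 6.01 and 3.41 CPM in CTR, 1.46 and 1.43 in OAT-1746, 5.16 and 3.32 in anti-PD-1, and 5.41, 7.06 and 5.25 in COMB. The OAT-1746 libraries were the 2 lowest and agreed closely, and the other groups overlapped except that all COMB libraries lay above both anti-PD-1 libraries. In COMB, Ccl17 rose 4.08-fold against OAT-1746 (log2 fold change 2.03 ± 0.36 (SE), edgeR adjusted p = 0.0202). Of the 4 called ligands it was the only one whose fold change hardly moved without OAT-1746 replicate 2, at 2.03, with an edgeR adjusted p of 0.130 there (3.72e-05 to 0.212 over the alternatives). It was also not called at 1.88 (adjusted p = 0.0876) without COMB replicate 2 and 2.11 (adjusted p = 0.107) without COMB replicate 3. OAT-1746 against CTR gave a 3.25-fold lower level (log2 fold change -1.70 ± 0.38 (SE), edgeR adjusted p = 0.0618), and -1.68 on the log2 scale without replicate 2 (edgeR adjusted p = 0.277; 0.00405 to 0.277 over the alternatives). It was called at -1.72 (adjusted p = 0.0313) without OAT-1746 replicate 1.

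Ccl22 stood at 27.3 and 28.6 CPM in CTR, 30.1 and 13.1 in OAT-1746, 27.5 and 33.8 in anti-PD-1, and 36.6, 32.7 and 31.3 in COMB. OAT-1746 replicate 2 was low while replicate 1 was above both CTR libraries, so Ccl22 did not share the pattern of Ccl17. Its log2 fold change in OAT-1746 against CTR was -0.37 ± 0.32 (SE, edgeR adjusted p = 0.435), 0.12 without replicate 2, and called at -1.10 (adjusted p = 0.00804) without OAT-1746 replicate 1 (0.00804 to 0.785 over the alternatives). The 9 dendritic cell markers, all tested, none at 0 counts and led by Fscn1, summed to 376 and 601 CPM in CTR, 848 and 900.4 in OAT-1746, 655 and 566 in anti-PD-1, and 639.9, 483 and 502 in COMB. Fscn1 made up most of this sum, at 268 and 457 CPM in CTR, 712 and 794 in OAT-1746, 481 and 437 in anti-PD-1, and 513, 342 and 361 in COMB. In OAT-1746 against CTR, 3 of the 9 markers were higher and 6 lower, with a median log2 fold change of -0.07, and the part of dendritic cells in the Ccl17 level was not tested. Flt3, which defines dendritic cells more narrowly than Fscn1, had 10.9 and 17.8 CPM in CTR, 9.49 and 6.81 in OAT-1746, 20.3 and 10.4 in anti-PD-1, and 10.2, 9.63 and 8.37 in COMB.

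Most like Ccl17 over the 9 libraries were Coprs (0.986, or 0.978 without OAT-1746 replicate 2), Zw10 (0.965, 0.949), Rpl37a (0.962, 0.956), Tsn (0.962, 0.947) and Rps4x (0.959, 0.942), with no p and at the low counts given above. The promoter window of Ccl17, chr8:94810203-94810452 on the plus strand, is shown as that of the called ligand with the largest rise. Capitals mark the letters of PU.1, and no other searched motif was found.
Ccl17: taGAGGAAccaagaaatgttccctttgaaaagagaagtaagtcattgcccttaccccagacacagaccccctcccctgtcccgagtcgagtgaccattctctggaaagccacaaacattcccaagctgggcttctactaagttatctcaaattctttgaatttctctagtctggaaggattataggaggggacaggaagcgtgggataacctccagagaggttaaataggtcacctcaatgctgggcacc

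Of 14 CC receptors, 8 had enough counts to be tested. Of these, edgeR called 0 in each of the 6 comparisons (15.8% of genes called in COMB against OAT-1746, 0.359% for the interaction and 0% in the others). Ccr1, the receptor of Ccl3, Ccl5 and Ccl6, stood at 558 and 463 CPM in CTR, 295 and 58.6 in OAT-1746, 331 and 480.4 in anti-PD-1, and 303, 686 and 649 in COMB. Ccr1 was low in OAT-1746 replicate 2 and high in COMB replicates 2 and 3. In OAT-1746 against CTR, Ccr1 (log2 fold change -1.53 ± 0.64 (SE), edgeR adjusted p = 0.139) and Ccr2 (log2 fold change -1.27 ± 0.47 (SE), edgeR adjusted p = 0.1102) were lower at an unadjusted p under 0.05, with 0 receptors higher. Leaving out OAT-1746 replicate 2 gave -0.78 (adjusted p = 0.411) for Ccr1 and -0.60 (adjusted p = 0.294) for Ccr2. Ccr4, the receptor of Ccl17 and Ccl22, was below the filter, at 0 to 0.0697 CPM. Of 10 other CC ligands 4 were tested (Ccl9, Ccl24, Ccl25 and Ccl27a) and 0 were called by edgeR in any comparison, with Ccl25 higher in COMB than in OAT-1746 at an unadjusted p under 0.05 (log2 fold change 1.24 ± 0.49 (SE), edgeR adjusted p = 0.103), or 0.92 without OAT-1746 replicate 2 (adjusted p = 0.413). Ccl9, close to Ccl6 in sequence, was the most abundant of them at 121 and 199 CPM in CTR, 178 and 127 in OAT-1746, 245 and 137 in anti-PD-1, and 170.1, 138 and 126 in COMB. Ccl20 and Ccl21a had 0 counts in every library.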

How the data were processed

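RNA of sorted CD11b+ mouse cells was sequenced in 9 libraries (3 COMB and 2 of each other group). Each deposited value counts the read pairs of a gene, and these raw counts were made by the authors with Trimmomatic 0.36, STAR 2.6.1b on mm10, Picard 2.17.1 and HTSeq-count 0.11.1 (reverse strand, mapping quality from 10 up). The annotation release behind them is not given in the sources used here. Groups followed the sample titles. Anti-PD-1 replicate 2 carries a treatment label that reads anti-PD-2, while its title and column place the library with anti-PD-1.

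Symbols and gene types came from GENCODE M21, which held 53620 of the 53801 listed identifiers (181 were absent), 21890 of them protein-coding. edgeR 4.0.16 in R 4.3.3 kept 12538 with filterByExpr (minimum count 10), scaled them by TMM and fitted 4 group means by quasi-likelihood (common biological coefficient of variation 0.214, prior degrees of freedom 4.15). The 6 contrasts were each treatment against CTR, COMB against each single agent, and the interaction, with Benjamini-Hochberg adjustment and calls under 0.05. Every test covered all tested genes, and all 10 ligands are named. The ligands and gene lists were chosen with earlier results of these data known. Library totals were 13048075 to 18796479 counts. Log2 CPM for correlations used a prior count of 2.

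Alternatives were DESeq2 1.42.0, limma 3.58.1 voom with quality weights, DESeq2 size factors or library size alone in edgeR, 2 other count filters, all gene types, a replicate block, robust estimation, only the groups compared, and leaving out each library, where a lone library is assumed to vary like the other groups. For single ligands in COMB against either agent and the interaction, for medians in COMB against OAT-1746, and for list counts without OAT-1746 replicate 2, the alternatives were chosen after seeing the data. The procedure was tested on simulated data. Promoters are RefSeq sequences of GRCm38.p6. Python 3.11.15 with matplotlib 3.10.9 drew the figures.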

Additional observations from a re-analysis of the deposited data

Results flagged for a closer look

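For 2 ligands, each OAT-1746 library differed from the mean of CTR in a direction opposite to that of each COMB library from the mean of anti-PD-1, so that OAT-1746 went with opposite directions without and with the antibody. Ccl4 had an interaction of -2.05 on the log2 scale (edgeR adjusted p = 0.0736), from 0.74 in OAT-1746 minus CTR, where the libraries overlapped, and -1.31 in COMB minus anti-PD-1. Without OAT-1746 replicate 2 the first of these was 0.14. Ccl17 had an interaction of 2.19 (edgeR adjusted p = 0.0838), from -1.70 in OAT-1746 minus CTR and 0.48 in COMB minus anti-PD-1 (unadjusted p = 0.170, edgeR adjusted p = 0.776). Neither passed the adjusted threshold in edgeR. Without OAT-1746 replicate 2 the interactions were -1.42 (adjusted p = 0.112; 0.000867 to 0.400 over the alternatives) and 2.19 (adjusted p = 0.183; 0.00604 to 0.400 over the alternatives). Leaving out 1 library made calls at -2.47 (adjusted p = 0.00272) without OAT-1746 replicate 1 for Ccl4 and at 2.21 (adjusted p = 0.0304) without OAT-1746 replicate 1 for Ccl17.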

How the results depend on the processing

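With 10 other alternatives, log2 fold changes of single ligands kept their direction and side of the threshold in 561 instances, gained a call in 18, lost one in 8 and turned in 3. Leaving out each of the 9 libraries gave 477, 24, 12 and 27. The replicate block turned Ccl6 in COMB minus anti-PD-1 to 0.0277 and Ccl5 in the interaction to -0.0593, and limma voom turned Ccl2 in the interaction to 0.0279. Same-number libraries of different groups had correlations of -0.349 to 0.0999 after removing group means, with 0 of 12 pairs over 0.1. In a group of 2 libraries the deviations from the mean are exact opposites, so several of these values repeat each other. They cannot tell whether libraries of the same number were prepared together, and the labels give only the number. Calls among the ligands by DESeq2 were 3 for OAT-1746 minus CTR, 1 for COMB minus CTR, 2 for COMB minus anti-PD-1 and 3 for the interaction, where edgeR made 0 in each. With no low-count filter there were 2 for OAT-1746 minus CTR (3.65% of genes called) and 2 for the interaction (0.908%). With limma voom there were 2 for COMB minus anti-PD-1 (0.279%) and 2 for the interaction (3.41%). For COMB minus OAT-1746, 4 calls became 0 with the replicate block (2 of all genes called, against 1979) and 0 with only the groups compared (30 genes), both of which leave fewer degrees of freedom. Leaving out a library gave 0 to 7 calls for OAT-1746 minus CTR and 0 to 8 for COMB minus OAT-1746, both highest without OAT-1746 replicate 1, where 3617 and 4033 of all genes were called. COMB minus OAT-1746 had 0 without OAT-1746 replicate 2 (27 genes), COMB replicate 2 (14) or COMB replicate 3 (5), and 6 without COMB replicate 1 (2923). It gave 0 to 3 for COMB minus anti-PD-1 (3 without either OAT-1746 library) and 0 to 5 for the interaction (5 without OAT-1746 replicate 1). Ranges over left-out libraries that crossed 0 were, for OAT-1746 minus CTR, -0.72 to 0.92 for Ccl8, -0.0298 to 1.21 for Ccl3, -0.0661 to 0.40 for Ccl5 and -1.10 to 0.12 for Ccl22, and for anti-PD-1 minus CTR -0.84 to 0.0985 for Ccl8, -0.35 to 0.33 for Ccl3, -0.15 to 0.48 for Ccl6, -0.51 to 0.31 for Ccl17 and -0.0265 to 0.28 for Ccl22. They were -0.38 to 0.15 for Ccl12 and -0.0272 to 0.82 for Ccl17 in COMB minus CTR, -0.34 to 0.29 for Ccl6 and -0.0122 to 0.29 for Ccl22 in COMB minus anti-PD-1, and -0.50 to 0.57 for Ccl2, -0.0928 to 0.66 for Ccl12 and -0.0758 to 0.48 for Ccl5 in the interaction. The cause of these differences was not tested. Counts limit Ccl17 and Ccl8 most, with 25 and 40 counts in their lowest libraries.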

Other observations

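COMB replicates 2 and 3 stood apart from COMB replicate 1 for several genes that were chosen after their values were seen. Ccl5 had 134, 352 and 361 CPM in COMB replicates 1, 2 and 3, and Ccl8 had 3.93, 19.1 and 15.7 CPM. Ccr1 had 303, 686 and 649 CPM, Csf1 76.3, 31.3 and 33.6 CPM, and Il10 0.816, 2.44 and 1.91 CPM. Over whole libraries, and not these genes alone, the chi-square per degree of freedom was 7.74 between replicates 2 and 3, 52.5 between 1 and 2, and 38.3 between 1 and 3.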
